A study of Mus musculus with 8 samples.

Results

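The 10 genes described here are markers of the liver sinusoidal endothelium, the fenestrated endothelial cells that line the capillaries of the liver: Stab1, Stab2, Clec4g, Lyve1, Fcgr2b, Kdr, Pecam1, Oit3, Mrc1 and Dnase1l3. They were taken by gene symbol from a deposited table of 56077 genes and loci, and each symbol matched 1 row. All 10 passed the filter on low counts and were among the 14261 genes tested. The data are RNA-seq of whole livers from fed, lean, 6-month-old C57BL/6 mice, with 4 animals heterozygous for eIF2α, labelled eIF2α flox/+ in the titles, and 4 wild-type animals. Eif2s1 encodes eIF2α, a subunit of the factor that brings the initiator tRNA to ribosomes, and stress kinases phosphorylate it to slow translation. No recombinase is named in the labels, and the growth protocol describes the mice of both groups as wild-type. Libraries go by their columns in the count table, H11, H12, H15 and H75 for heterozygous and W32, W33, W76 and W90 for wild-type livers. No label says whether the mice came from separate litters, so p-values measure the spread between these samples.

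Sinusoidal endothelial cells clear waste molecules from portal blood by receptor-mediated endocytosis. They carry scavenger, mannose and Fc receptors at levels that most other endothelia lack, and they depend on VEGF signalling from neighbouring hepatocytes. Several of their markers are not exclusive to them: Mrc1 and Fcgr2b are also expressed by macrophages, Fcgr2b by B cells, Lyve1 by lymphatic endothelium and Pecam1 by all endothelia. Because whole liver was sequenced, more cells of a type and more RNA per cell cannot be told apart in any value below.

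Libraries held 22177979 to 28564357 counts in the heterozygous group and 25626355 to 27799097 in the wild-type group. Eif2s1 averaged 22.2 ± 2.12 CPM in heterozygous livers, which is 73.8% of the 30 ± 2.0 CPM in wild-type livers (SD, n = 4 each). The groups did not overlap (exact two-sided permutation test over 70 assignments, p = 0.0286, the smallest it can give). The log2 fold change of Eif2s1 was -0.44 (SE 0.095), with an adjusted p of 0.315 in edgeR and 0.0156 in DESeq2. H15 stood apart from H12 and H75, with a chi-square per gene of 163 and 133, where pairs of wild-type libraries had 20.2 to 82.2, but not from H11, at 70.6. Across all genes, edgeR's quasi-likelihood test called 0 of 14261 at an adjusted p of 0.05, and without H15 it called 252. Its unadjusted p was under 0.05 for 1332 genes. DESeq2 called 152 of 13146 genes and limma-voom 0.

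On GRCm38, the assembly that mm10 denotes, the members lie on 8 chromosomes and are protein-coding. Stab1 lies on chromosome 14 from 31139013 to 31168641 and Dnase1l3 on the same chromosome from 7964533 to 7994573. Stab2 and Oit3 share chromosome 10, from 86841198 to 87008025 and from 59422958 to 59441778. Clec4g lies on chromosome 8 from 3707064 to 3720651, Lyve1 on chromosome 7 from 110850607 to 110863239 and Fcgr2b on chromosome 1 from 170958617 to 170976547. Kdr lies on chromosome 5 from 75932827 to 75978458, Pecam1 on chromosome 11 from 106654217 to 106750628 and Mrc1 on chromosome 2 from 14229392 to 14332057. Mrc1 is the 1 member on the plus strand.

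RefSeq promoter sequences on GRCm38.p6, 250 bases before to 50 after the transcription start, were held for 6 of the 10 members: Stab1, Stab2, Clec4g, Fcgr2b, Kdr and Mrc1. Those of 3 members are printed because they belong to the paralogous stabilins and to the member with the highest level per deposited gene length. Capitals mark 2 motifs on either strand, AGGAAG (or CTTCCT), a form of the site bound by ETS factors, and TATAAA (or TTTATA), the TATA box. AGATAA (or TTATCT), a form of the site bound by GATA factors, was searched for as well. Stab1 is from chr14:31168592-31168891, Stab2 from chr10:87007893-87008192 and Clec4g from chr8:3720602-3720901, all on the minus strand and written 5′ to 3′.
Stab1: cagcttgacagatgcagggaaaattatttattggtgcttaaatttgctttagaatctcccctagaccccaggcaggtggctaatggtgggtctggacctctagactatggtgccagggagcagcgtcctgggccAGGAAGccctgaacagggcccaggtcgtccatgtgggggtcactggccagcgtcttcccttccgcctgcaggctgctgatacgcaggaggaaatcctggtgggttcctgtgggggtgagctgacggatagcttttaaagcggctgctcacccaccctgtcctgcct
Stab2: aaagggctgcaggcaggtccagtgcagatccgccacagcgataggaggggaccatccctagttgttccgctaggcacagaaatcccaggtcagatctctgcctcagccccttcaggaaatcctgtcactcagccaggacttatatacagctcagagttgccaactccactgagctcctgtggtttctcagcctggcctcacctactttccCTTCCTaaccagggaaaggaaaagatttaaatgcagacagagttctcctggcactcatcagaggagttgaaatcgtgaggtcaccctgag
Clec4g: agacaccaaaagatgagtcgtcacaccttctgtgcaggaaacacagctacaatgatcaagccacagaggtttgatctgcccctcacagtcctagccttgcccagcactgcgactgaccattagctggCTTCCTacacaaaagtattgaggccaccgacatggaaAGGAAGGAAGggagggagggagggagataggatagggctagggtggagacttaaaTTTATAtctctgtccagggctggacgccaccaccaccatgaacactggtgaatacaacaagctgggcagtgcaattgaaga
The ETS letters were in 4 of 6 member promoters, against 35.1% of 27025 promoters of the same length. They occurred once in Stab1 and in Stab2 and 3 times in Clec4g, where 2 of the matches overlap, and 3 times in Mrc1. The TATA letters, on either strand, were in 1 of 6, against 14.2% of all promoters. That promoter was Clec4g, 31 bases before the start. The printed strand reads TTTATA there, so TATAAA lies on the strand opposite to the gene. The letters AGATAA or TTATCT were in 0 of 6, against 11.4% of all promoters. Other forms of the GATA site were not searched for. These are matches of letters in a window and no measurement of binding.

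Per kb of the deposited gene length, Clec4g and Fcgr2b had the highest levels of the 10 markers and Lyve1 the lowest. Levels here are CPM, counts scaled to a common library size with TMM factors, divided by the gene length in kb that the deposited table gives. That length was 1242 bases for Clec4g, 1578 for Fcgr2b and 4747 for Dnase1l3. The top ranks rest on it, and other lengths were not tried. Without length, Clec4g, Fcgr2b and Dnase1l3 averaged 40.8, 35.5 and 42.2 CPM in heterozygous livers. In wild-type livers they averaged 34.5, 35.2 and 35.2 CPM. Lyve1 was lowest without length as well, at 5.95 and 6.49 CPM in heterozygous and wild-type livers. Clec4g, which encodes the lectin LSECtin, was at 32.8 ± 4.12 CPM per kb in heterozygous and 27.8 ± 4.48 CPM per kb in wild-type livers (SD, n = 4 each). Fcgr2b, the inhibitory Fc receptor that clears small immune complexes, was at 22.5 ± 3.17 and 22.3 ± 2.21 CPM per kb in heterozygous and wild-type livers (SD, n = 4 each). Lyve1, a hyaluronan receptor, was at 2.06 ± 0.887 CPM per kb in heterozygous and 2.24 ± 0.924 CPM per kb in wild-type livers (SD, n = 4 each).

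Between these ends the order of mean level per kb was Dnase1l3, Oit3, Mrc1, Kdr, Pecam1, Stab1 and Stab2, from 8.89 CPM per kb for Dnase1l3 to 4.66 CPM per kb for Stab2 in heterozygous livers and from 7.42 to 4.16 CPM per kb in wild-type livers. Several neighbours in that order did not differ beyond their spread. Dnase1l3 lay above Oit3 in 5 of 8 libraries, Mrc1 above Kdr in 5, Kdr above Pecam1 in 5 and Pecam1 above Stab1 in 4. Clec4g lay above Fcgr2b, Fcgr2b above Dnase1l3, Oit3 above Mrc1, Stab1 above Stab2 and Stab2 above Lyve1 in all 8 libraries. Fcgr2b and Dnase1l3 were the 1 pair of neighbours whose ranges over the 8 libraries lay apart.

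**Figure D1:**
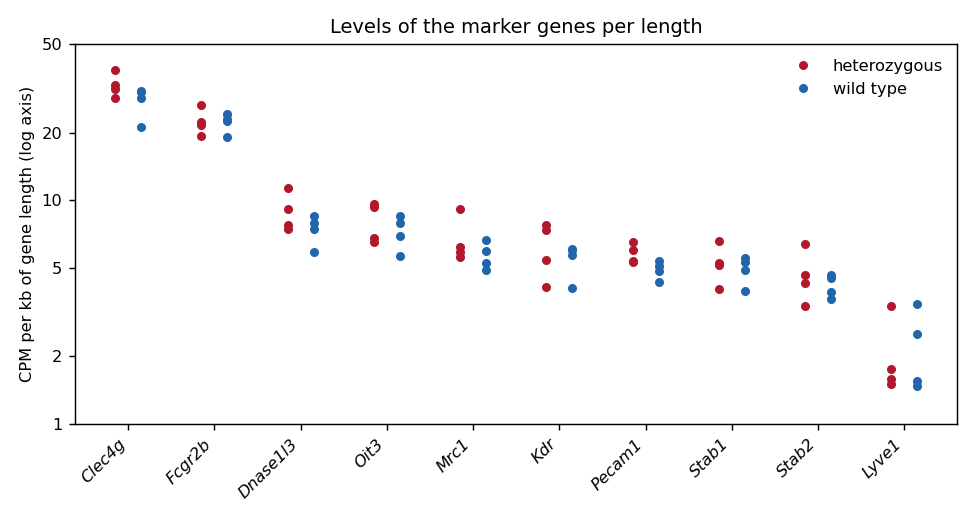
Level of each marker gene per kb of deposited gene length (CPM per kb, log axis), with 1 point per library for heterozygous and wild-type livers. Clec4g and Fcgr2b lie above the other markers in both genotypes, and Lyve1 is lowest, at 1.5 to 3.38 CPM per kb in heterozygous and 1.47 to 3.43 CPM per kb in wild-type libraries.

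None of the 10 markers differed between heterozygous and wild-type livers in edgeR's quasi-likelihood test, and 9 of 10 had a positive log2 fold change. The share of all genes tested with a positive value was 51.1%. The median log2 fold change of the markers was 0.17, against 0.005 over all genes tested, and the values ran from -0.12 for Lyve1 to 0.26 for Dnase1l3. Adjusted p-values over all genes were 0.527 to 0.982 with edgeR and 0.511 to 0.988 with DESeq2. EdgeR called 0 of 10 markers, against 0.0% of genes tested, and DESeq2 called 0 of 10, against 1.16%. At an unadjusted p under 0.05 there was 1 marker, Pecam1, with a positive value, against 9.34% of genes tested (4.9% positive and 4.44% negative). In 0 of 10 markers did the 2 groups of libraries lie apart, against 4.38% of genes tested. In the authors' deposited table, adjusted p-values of the 10 markers ran from 0.552 to 0.991.

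Library H11 decided much of the size of these values. Without it the median log2 fold change of the markers was 0.048 and 7 of 10 were positive, with Stab1, Stab2 and Fcgr2b negative and Lyve1 at 0.0012. Without H75 the median was 0.27, without W76 it was 0.084, and without H15 it was 0.13 with 9 of 10 positive. With library totals alone as the scaling, 8 of 10 were positive and the median was 0.10, while that of all genes was -0.079.

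**Figure D2:**
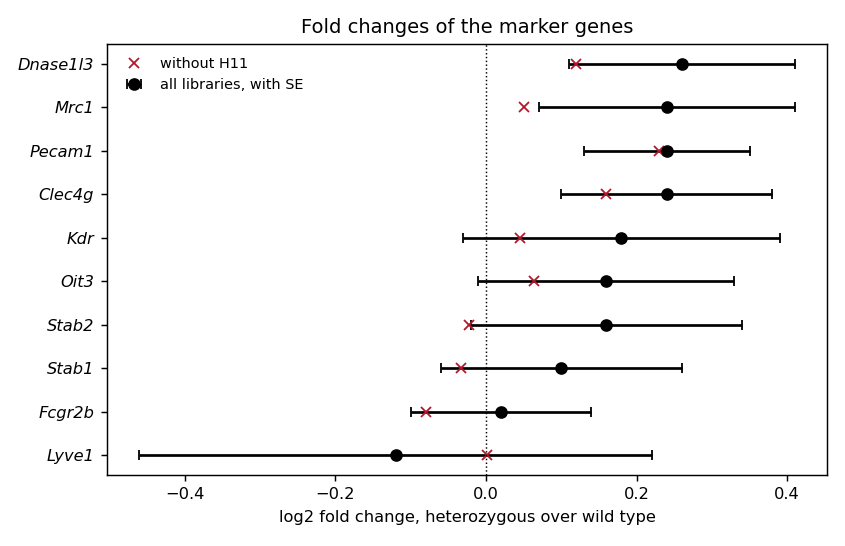
Log2 fold change of each marker gene, heterozygous over wild type, from edgeR with all 8 libraries (black points, bars 1 SE) and without library H11 (crosses). Values with all libraries run from -0.12 (Lyve1) to 0.26 (Dnase1l3), and without H11 those of Stab1, Stab2 and Fcgr2b lie below 0.

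The stabilins, scavenger receptors that take up hyaluronan, modified lipoproteins and other waste molecules, had close patterns. Stab1 was at 52.6, 41.0, 41.7 and 32 CPM in H11, H12, H15 and H75, against 42.3, 44.1, 31.3 and 38.8 CPM in W32, W33, W76 and W90. One heterozygous library, H11, lay above the wild-type range, and the other 3 lay within it. Its log2 fold change was 0.10 (SE 0.16, adjusted p = 0.879, edgeR).

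Stab2 was at 52.3, 35.0, 38.2 and 27.8 CPM in H11, H12, H15 and H75, against 37.9, 37.1, 29.8 and 32 CPM in W32, W33, W76 and W90. Heterozygous libraries lay on both sides of the wild-type range, H11 and H15 above it and H75 below it. Its log2 fold change was 0.16 (SE 0.18, adjusted p = 0.8, edgeR). Exons of Stab1 overlap those of Nt5dc2 and exons of Stab2 those of Gm16268 on the other strand. The sources used here do not give the strand setting of the counting. Nt5dc2 had 61 to 131 counts per library, against 639 to 1309 for Stab1, and Gm16268 had 0 to 5.

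Mrc1, the mannose receptor that clears glycoproteins and collagen fragments, was at 48.9, 33.3, 31.5 and 29.8 CPM in H11, H12, H15 and H75, against 35.7, 31.8, 26.1 and 28.1 CPM in W32, W33, W76 and W90. H11 alone lay above the wild-type range. The log2 fold change was 0.24 (SE 0.17, adjusted p = 0.685, edgeR) and 0.051 without H11. Of the markers, Mrc1 had the largest deviation in H11, 0.69 above its wild-type mean on the log2 scale, and in wild-type livers it was highest in W32.

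Kupffer cells, the resident macrophages of the liver, express Mrc1 too, and their 13 markers had list medians of 0.79 in H11 and 0.72 in W32. They were also high in H75, at 0.43 and 281 CPM, where Mrc1 had its lowest heterozygous level. Their summed level was 156 to 355 CPM in heterozygous libraries, highest in H11, and 146 to 357 CPM in wild-type libraries, highest in W32. Of these 13 genes 12 had a positive log2 fold change, with a median of 0.18, and edgeR called 0. The lowest p-values among them were those of Marco, a macrophage scavenger receptor (log2 fold change 0.57, adjusted p = 0.742, edgeR), and C1qc, a complement C1q chain (0.25, adjusted p = 0.790, edgeR). The part of Kupffer cells in the Mrc1 values was not tested.

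Fcgr2b was at 42.4, 35.2, 34.2 and 30.4 CPM in H11, H12, H15 and H75, against 35.5, 38.4, 30.3 and 36.5 CPM in W32, W33, W76 and W90. The groups overlapped widely and the means were 35.5 ± 5.0 CPM in heterozygous and 35.2 ± 3.49 CPM in wild-type livers (SD, n = 4 each). Its log2 fold change was the closest to 0 of the 10 (0.02, SE 0.12, adjusted p = 0.982, edgeR). With library totals alone as the scaling it was -0.066. Fcgr2b was also the member that shares most sequence with other genes: 6.95% of the 50-base stretches of its transcripts occur in transcripts of other genes, 2.92% in those of its paralog Fcgr3, where the other members had 0.0 to 1.96%. Fcgr3, an activating Fc receptor, had 73 to 185 counts per library, against 608 to 1076 for Fcgr2b. Markers of B and T cells summed to 1.12 to 2.61 CPM in heterozygous and 1.25 to 2.86 CPM in wild-type libraries, and none of those 8 genes passed the filter on low counts.

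Clec4g was higher than its wild-type mean in all 4 heterozygous libraries, without passing the test. It was at 47.7, 40.8, 35.5 and 39.1 CPM in H11, H12, H15 and H75, against 35.8, 37.7, 26.3 and 38.3 CPM in W32, W33, W76 and W90. All heterozygous libraries but H15 lay above the wild-type range. The log2 fold change was 0.24 (SE 0.14, adjusted p = 0.624, edgeR), and without W76, the lowest library, it was 0.13. Exons of Clec4g overlap those of Gm16553 on the other strand, which had 2 to 8 counts per library.

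Dnase1l3, a secreted DNase that degrades chromatin released from dying cells, had the largest log2 fold change of the 10, 0.26 (SE 0.15, adjusted p = 0.640, edgeR). It was at 53.7, 43.2, 36.8 and 35.1 CPM in H11, H12, H15 and H75, against 40.2, 37.4, 27.9 and 35.5 CPM in W32, W33, W76 and W90. H11 and H12 lay above the wild-type range, and the other heterozygous libraries lay inside it. Without H11 the log2 fold change was 0.12.

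Oit3, which encodes a protein with a zona pellucida domain, was at 26.1, 17.7, 25.3 and 18.5 CPM in H11, H12, H15 and H75, against 18.8, 23.0, 15.3 and 21.4 CPM in W32, W33, W76 and W90. The heterozygous libraries fell into a high pair, H11 and H15, above the wild-type range, and a low pair, H12 and H75, inside it. Its log2 fold change was 0.16 (SE 0.17, adjusted p = 0.797, edgeR), and 0.058 without W76 and 0.25 without W33.

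Kdr, the VEGF receptor VEGFR2 that transmits survival and permeability signals in endothelium, split the heterozygous libraries in the same way. It was at 46.1, 32, 43.5 and 24.1 CPM in H11, H12, H15 and H75, against 33.8, 35.8, 24.0 and 35.3 CPM in W32, W33, W76 and W90. The SD within heterozygous livers was 10.2 CPM around a mean of 36.4, and within wild-type livers 5.53 CPM around 32.2 (n = 4 each). The log2 fold change was 0.18 (SE 0.21, adjusted p = 0.814, edgeR), 0.045 without H11 and 0.33 without H75.

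Of the VEGF ligands, receptors and co-receptors, 9 of 10 genes were tested and edgeR called 0, with 5 positive and 4 negative values and a median log2 fold change of 0.08. Vegfa, the main ligand of Kdr, averaged 140 ± 14.9 CPM in heterozygous and 157 ± 20.9 CPM in wild-type livers (SD, n = 4 each; log2 fold change -0.17, adjusted p = 0.687, edgeR). Flt4, the VEGF receptor VEGFR3, averaged 18.4 ± 5.25 CPM in heterozygous and 15.5 ± 2.59 CPM in wild-type livers (SD, n = 4 each; adjusted p = 0.747, edgeR). Nrp1, a co-receptor for VEGF, was the 1 gene of this group whose libraries did not overlap, against 4.38% of all genes tested. It was at 119, 114, 93.2 and 115 CPM in H11, H12, H15 and H75, against 74.7, 82.3, 77.5 and 85.2 CPM in W32, W33, W76 and W90. All 4 heterozygous libraries lay above the wild-type range. Its log2 fold change was 0.46 (SE 0.097), with an adjusted p of 0.296 in edgeR and 0.00548 in DESeq2, which called 1.16% of genes. Like 8 of the markers it was highest in H11, and its lowest library was W32.

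Pecam1, the adhesion molecule CD31 of endothelial junctions, had the lowest p of the 10 markers. It was at 17.8, 19.4, 15.8 and 16 CPM in H11, H12, H15 and H75, against 15.1, 15.9, 12.9 and 14.3 CPM in W32, W33, W76 and W90. H11, H12 and H75 lay above the wild-type range, and H15 lay just inside it. The log2 fold change was 0.24 (SE 0.11), with an unadjusted p of 0.0474 and an adjusted p of 0.527 in edgeR, and it stayed between 0.15 and 0.29 over 20 alternatives. Its adjusted p over those alternatives ran from 0.277 to 0.913. It was the 1 marker highest in H12.

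Lyve1 did not follow the other markers. It was at 4.34, 5.09, 9.77 and 4.60 CPM in H11, H12, H15 and H75, against 4.50, 7.33, 4.24 and 9.91 CPM in W32, W33, W76 and W90. H15 and W90 were about equally high, H11 was among the lowest, and the groups overlapped across the whole range. These values rest on 92 to 262 counts per library, the fewest of the 10. The log2 fold change was -0.12 (SE 0.34, adjusted p = 0.934, edgeR), -0.47 without H15 and 0.15 without W90.

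**Figure D3:**
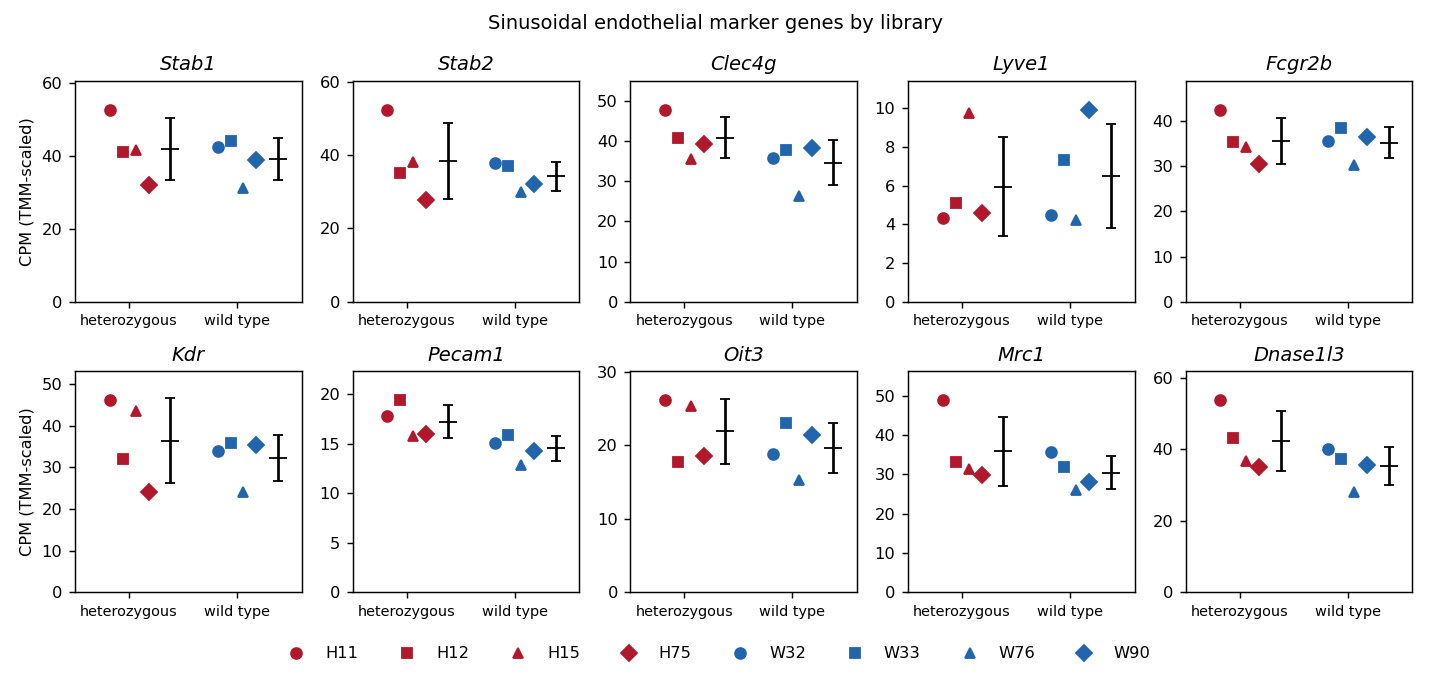
CPM (TMM-scaled, axes from 0) of the 10 marker genes in each library, with heterozygous libraries left in each panel, wild-type libraries right and the mean with its SD beside each group. H11 is highest for 8 markers and W76 lowest for 9, and for Lyve1 the libraries H15 (9.77 CPM) and W90 (9.91 CPM) lie above the rest.

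Across libraries, 8 markers were highest in H11 and 9 lowest in W76, and the sums of the highest and lowest library of each genotype lay further apart than the 2 group means. The deviation of each marker from its wild-type mean, on the log2 scale, had a median over the 10 genes of 0.46, 0.06, 0.11 and -0.14 for H11, H12, H15 and H75, against 0.08, 0.14, -0.32 and 0.04 for W32, W33, W76 and W90. In H11 9 of 10 markers lay above their wild-type mean and in H75 3 of 10. In W33 10 of 10 did and in W76 0 of 10. Summed over the 10 markers, the level was 257 to 392 CPM in heterozygous libraries, 316 ± 55.9 on average, and 228 to 309 CPM in wild-type libraries, 282 ± 36.4 on average (SD, n = 4 each). H11 and H15 lay above the wild-type range of this sum and the other heterozygous libraries inside it. The 10 markers took 0.0231 to 0.0398% of the counts of a heterozygous library and 0.0228 to 0.0319% of those of a wild-type library.

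**Figure D4:**
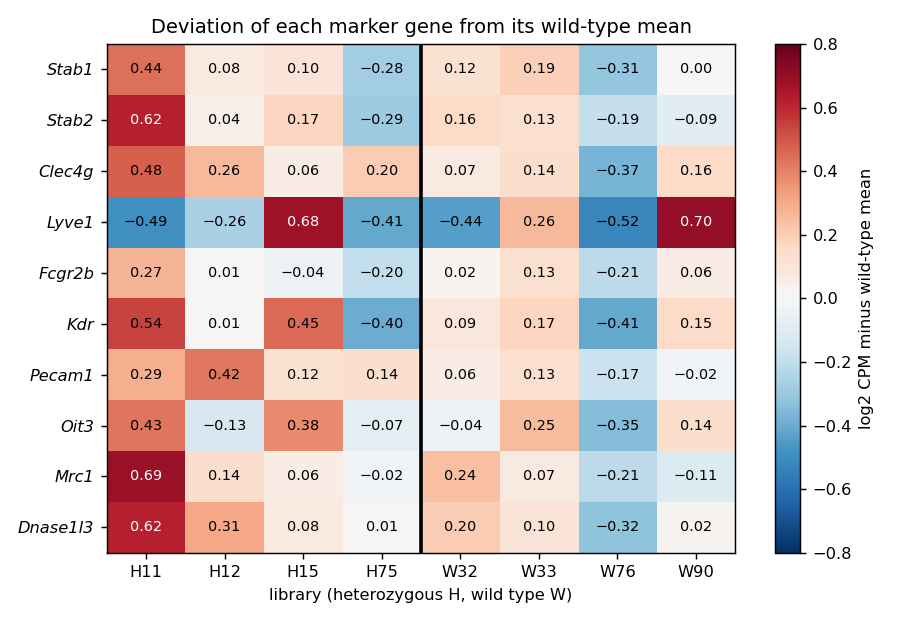
Log2 CPM minus the wild-type mean for each marker gene (rows) in each library (columns), heterozygous libraries left of the line. Column H11 is positive for 9 genes and column W76 negative for 10, while the Lyve1 row is highest in H15 (0.68) and W90 (0.70).

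The members differed in how closely they kept to that shared profile. The root mean square difference between a gene's centred log2 values and the median of the markers over the 8 libraries was 0.066 for Stab1, 0.082 for Fcgr2b and 0.10 for Dnase1l3. It was 0.12 to 0.17 for Stab2, Clec4g, Mrc1, Oit3, Pecam1 and Kdr, and 0.50 for Lyve1. Of 10948 other genes with a mean of at least 1 CPM and an SD over the libraries of at least 0.5 times that of the markers' median, the median difference was 0.30. The 10 closest were Cic (0.088), Gpr182, Epas1, Glipr2, Tpbgl, Arhgef15, Crtap, Npr1, Ttbk2 and Sipa1. Gpr182, a receptor of sinusoidal endothelium, was at 0.096 and the 1 of them from the other endothelial lists. The rest of these close genes were not sorted by cell type. The 10 markers themselves set the median they were compared with and the other genes did not, so their differences are not like measures. All points share the 8 libraries and their scaling, so this is a description of these libraries.

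Other endothelial genes were taken from lists, and the genes named from each list are those of lowest p, apart from Plvap and Gpr182. Of 16 pan-endothelial genes edgeR called 0, with 10 positive and 6 negative values and a median log2 fold change of 0.08. Their list median was 0.35 in H11 and -0.28 in H75, against -0.26 in W76 and at most 0.17 in the other wild-type libraries. Tie1, an angiopoietin co-receptor, averaged 13.2 ± 2.98 CPM in heterozygous and 10.3 ± 1.0 CPM in wild-type livers (SD, n = 4 each; adjusted p = 0.527, edgeR), and Egfl7, a secreted endothelial factor, 18.0 ± 2.32 and 14.6 ± 2.93 CPM in heterozygous and wild-type livers (adjusted p = 0.574, edgeR). Pecam1 is a pan-endothelial gene as well. Cldn5, the next of the 16 by p, went the other way (log2 fold change -0.39, adjusted p = 0.590, edgeR).

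A second list of 15 sinusoidal genes had a list median of 0.42 in H11 and -0.27 in H75, against -0.16 in W76. It held 11 positive and 4 negative values, with a median of 0.11 and 0 calls by edgeR. Besides Nrp1, described above, the gene of lowest p was Cd36, a fatty acid translocase that hepatocytes express too, at 37.7 ± 17.2 CPM in heterozygous and 86.4 ± 42.3 CPM in wild-type livers (SD, n = 4 each; log2 fold change -1.20, adjusted p = 0.408, edgeR). Its value was negative, where 9 of the 10 markers had positive ones. Genes of large vessels and other capillaries had 2 positive and 6 negative values of 8, with a median of -0.15 and 0 calls. Their list median was 0.01 in H11, where that of the 10 markers was 0.46, and -0.71 in H75. Their summed level, in contrast, was highest in H11, at 58.3 CPM, of which Plvap had 41.9 CPM, and lowest in H75, at 29.1 CPM. Ly6c1, a surface protein of capillaries, was at 0.409 ± 0.183 CPM in heterozygous and 0.232 ± 0.170 CPM in wild-type livers, and Sox17, an arterial transcription factor, at 1.67 ± 0.360 and 2.01 ± 0.243 CPM in heterozygous and wild-type livers (SD, n = 4 each).

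Genes that mark endothelial cells by their place in the lobule gave no shared direction. Of 8 pericentral genes 5 were positive and 3 negative, and of 6 periportal genes 3 and 3. The pericentral list median was -0.20 in H15 and 0.01 in W76, where the 10 markers were at 0.11 and -0.32. On the periportal list, Dkk3 averaged 2.76 ± 0.453 CPM in heterozygous and 2.18 ± 0.560 CPM in wild-type livers, and Efnb2, an ephrin ligand, 3.42 ± 0.488 and 2.85 ± 0.739 CPM in heterozygous and wild-type livers (SD, n = 4 each). Lhx6, a homeobox gene on the pericentral list, was at 4.70, 2.93, 6.80 and 2.70 CPM in H11, H12, H15 and H75, against 8.99, 6.86, 8.17 and 7.45 CPM in W32, W33, W76 and W90. Its libraries did not overlap, against 4.38% of all genes tested, and H15 was close to the lowest wild-type library. EdgeR did not call Lhx6 (log2 fold change -0.88, SE 0.27, adjusted p = 0.405). Wnt2, a Wnt ligand of central endothelium, averaged 2.78 ± 0.536 CPM in heterozygous and 1.79 ± 0.528 CPM in wild-type livers (SD, n = 4 each; adjusted p = 0.487, edgeR).

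The libraries high for Lyve1 were also high for bile duct genes by their list median. The list median of 5 genes of cholangiocytes, the cells of the bile ducts, was highest in H15 among heterozygous and in W90 among wild-type libraries. The summed level of these genes was 40.9 to 101 CPM in heterozygous and 34.1 to 87.1 CPM in wild-type libraries. All 5 had a positive log2 fold change, with a median of 0.33 and 0 calls by edgeR. Epcam, an epithelial adhesion molecule, was at 1.33, 2.50, 4.42 and 0.951 CPM in H11, H12, H15 and H75, against 1.16, 1.43, 0.655 and 3.33 CPM in W32, W33, W76 and W90. Sox9, a transcription factor of bile duct cells, went another way, at 8.83, 44.8, 8.24 and 20.2 CPM in H11, H12, H15 and H75, against 7.90, 9.43, 8.13 and 9.57 CPM in W32, W33, W76 and W90. It was far highest in H12 and at its lowest heterozygous level in H15 (adjusted p = 0.482, edgeR). Of 3 lymphatic genes tested, 2 were positive and 1 negative, with a median log2 fold change of 1.4 and 0 calls by edgeR. Mmrn1 gave low counts, at 0.200 to 2.2 CPM in heterozygous and 0.113 to 0.511 CPM in wild-type libraries. Its log2 fold change was 1.63 (adjusted p = 0.51, edgeR). Mmrn1 was highest in H12, where Lyve1 was at 5.09 CPM. Ccl21a, in the row that was tested, averaged 1.03 ± 1.04 CPM in heterozygous and 0.388 ± 0.34 CPM in wild-type livers (SD, n = 4 each; log2 fold change 1.4, adjusted p = 0.604, edgeR). Prox1, on the same list, was at far higher levels than these genes. It averaged 76.5 ± 26.1 CPM in heterozygous and 80.7 ± 15.7 CPM in wild-type livers (SD, n = 4 each; log2 fold change -0.08, adjusted p = 0.944, edgeR). Which cells the Prox1 values come from was not tested. The part of bile duct regions or lymphatic vessels in the Lyve1 values was not tested.

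Stellate cells, the vitamin A-storing pericytes of the sinusoid, were lowest where several markers were low. Their 12 genes had a list median of -1.0 in H75, the lowest of all libraries, and 0.28 in H11, against -0.25 to 0.22 in wild-type libraries, with 4 positive and 8 negative log2 fold changes and 0 calls by edgeR. Col3a1, a fibrillar collagen, had a log2 fold change of -0.28 and Colec11, a collectin, of -0.15 (adjusted p = 0.770 and 0.840, edgeR). Hepatocyte genes, which take far more of the counts, had list medians of 0.08 to 0.45 in heterozygous and -0.06 to 0.07 in wild-type libraries. Of 8 such genes 7 were positive and 1 negative, with a median log2 fold change of 0.19 and 0 calls by edgeR. Of these, Hnf4a, a hepatocyte transcription factor, averaged 633 ± 76.9 CPM in heterozygous and 516 ± 19.6 CPM in wild-type livers (SD, n = 4 each; adjusted p = 0.458, edgeR). Its libraries did not overlap, against 4.38% of all genes tested. Haemoglobin and other red cell genes summed to 302 to 460 CPM in heterozygous libraries, lowest in H11, where the markers were highest, and to 270 to 412 CPM in wild-type libraries. All 5 red cell genes were positive, with a median log2 fold change of 0.08. Hba-a1, an alpha-globin gene, had a log2 fold change of 0.20 (adjusted p = 0.742, edgeR). Neutrophil genes summed to 1.32 to 6.82 CPM in heterozygous and 0.908 to 2.28 CPM in wild-type libraries, and were lowest among heterozygous libraries in H15. All 3 neutrophil genes tested were positive, and Ly6g and Retnlg did not pass the filter. In edgeR 2 had an unadjusted p under 0.05, against 9.34% of all genes tested (4.9% positive). They were S100a9 and S100a8, subunits of calprotectin, both at low levels. S100a9 averaged 1.41 CPM in heterozygous and 0.32 CPM in wild-type livers (log2 fold change 2.13, adjusted p = 0.442, edgeR). S100a8 averaged 0.616 and 0.176 CPM in heterozygous and wild-type livers (1.74, adjusted p = 0.479, edgeR). The part of these cell types in the marker values was not tested.

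**Figure D5:**
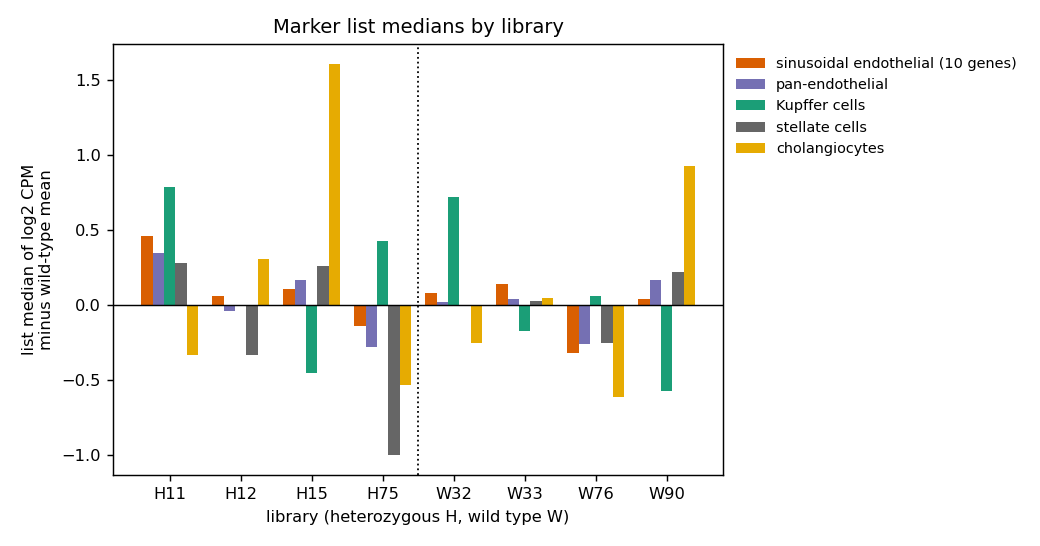
Median over each marker list of log2 CPM minus the wild-type mean, by library, with heterozygous libraries left of the dotted line. The sinusoidal and pan-endothelial medians are both highest in H11 (0.46 and 0.35) and low in W76 and H75, whereas the Kupffer median is high in H11, H75 and W32 and the cholangiocyte median in H15 and W90.

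Among relatives of the scavenger and mannose receptors, 12 of 13 genes were tested, with 8 positive and 4 negative values, a median log2 fold change of 0.11 and 0 calls by edgeR. Scarb1, the HDL receptor that hepatocytes express as well, averaged 118 ± 9.73 CPM in heterozygous and 95.3 ± 13.5 CPM in wild-type livers (SD, n = 4 each; log2 fold change 0.31, adjusted p = 0.476, edgeR).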

How the data were processed

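RNA was extracted from snap-frozen livers, treated with DNaseI and depleted of ribosomal RNA, per the labels' protocols. Per the submitters' processing notes, which state no roles, reads were handled on mm10 with SAMtools 1.9, GATK 3.8, Bowtie2 2.2.9 and fastp 0.19.5. The counting program and its annotation are not given in the sources used. The deposited table holds estimated counts, not normalized, and 90.0% of its values are whole. The authors' deposited comparison gives, per the file headers, the fold (a ratio), its log2, a p-value, an adjusted p-value and the gene length in bases. Its header states no direction. For 99.5% of 13971 genes its log2 value has the same sign as the difference heterozygous minus wild type computed here.

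Columns were assigned to a group by their first letter, with no pairing. Counts were rounded and filterByExpr kept 14261 genes. The main test was edgeR's quasi-likelihood F-test (version 4.0.16, R 4.3.3) on group alone, with TMM scaling (factors 0.900 to 1.06). A gene was called at an adjusted p under 0.05 (Benjamini-Hochberg, all genes). An SE is the log2 fold change divided by the square root of F. Deviations by library add 0.01 CPM before the log2. Alternatives were other scalings and filters, DESeq2 1.42.0, limma-voom (limma 3.58.1), other quasi-likelihood settings, removal of features, and leaving out each library. The tests were checked on simulated data. Coordinates come from GENCODE mouse release M21. Named genes are the 10 markers, Eif2s1, 1 or more members of lowest p in each list with tested genes and the 10 genes closest in profile. Gpr182, Plvap, Fcgr3, Nt5dc2 and other overlapping genes are named where stated. The markers and lists were chosen with earlier results of these data known. Every pair of libraries within a group differed by more than sampling noise. Counts limit precision by counting error alone.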

Additional observations from a re-analysis of the deposited data

Results flagged for a closer look

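Lyve1 in heterozygous library H15, at 9.77 CPM, lay far from the other 3 heterozygous libraries, which had 4.34 to 5.09 CPM. It lay inside the wild-type range, whose highest library had 9.91 CPM.

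The summed level of the relatives of scavenger and mannose receptors was 437 CPM in heterozygous library H11, apart from the other heterozygous libraries at 380 to 383 CPM. Wild-type libraries had 356 to 393 CPM. Such gaps were looked for in 54 groups of 4 libraries and found in 2, and chance gives about 1 in 20.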

How the results depend on the processing

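No paired analysis was possible because the columns of the count table carry no replicate number. EdgeR called 0 genes, and 18 with no filter on low counts, 1 with the newer quasi-likelihood method, 1 with a robust fit, 1 without unannotated loci and 1 at an adjusted p under 0.1. DESeq2 called 152, and 778 without H15, an alternative chosen after seeing the data. Leaving out single libraries gave 0 to 252 genes, the most without H15 and 2 without W32. Over 20 alternatives no marker passed. Of 200 marker values 193 kept their direction and 7 turned: Fcgr2b with library totals alone (-0.066), and values on leaving out a library. Those ranged from -0.033 to 0.20 for Stab1, -0.022 to 0.29 for Stab2, -0.080 to 0.082 for Fcgr2b (-0.048 without W76) and -0.47 to 0.15 for Lyve1 (0.0012 without H11). For Kdr they were 0.045 to 0.33, Mrc1 0.051 to 0.32, Dnase1l3 0.12 to 0.34, Clec4g 0.13 to 0.30, Oit3 0.058 to 0.25 and Pecam1 0.18 to 0.29. The cause was not tested. The number of positive markers was 7 to 10 and their median 0.048 to 0.27. Eif2s1 differed by -0.50 to -0.40 and missed the threshold without W76 (exact permutation p = 0.0571). With 4 libraries a group and SEs of 0.11 to 0.34, small differences in these markers were not detectable.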
